A study of Mus musculus with 12 samples.

Results

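The response of mouse embryonic fibroblasts to doxycycline was compared between cells that had lost the coactivators CBP and p300 and wild-type cells, gene by gene. The quantity described is the interaction, the log2 response to doxycycline in KO cells minus the log2 response in WT cells. A positive value means that a gene rose more, or fell less, in KO than in WT. All 12 libraries of the series and all 12637 genes of the deposited count table entered the comparison. The 4 groups were KO Dox, KO DMSO, WT Dox and WT DMSO, with 3 libraries each. KO cells were immortalised fibroblasts with floxed alleles of Crebbp and Ep300 and a stably expressed Cre-ERT2 recombinase, in which 4-hydroxytamoxifen (4-OHT) switched on the deletion. The labels call the other cells WT and do not say whether these carried the floxed alleles or Cre-ERT2 or received 4-OHT. Dox libraries came from cells given doxycycline, as the sole antibiotic, at 30 µg/ml for 24 hours and DMSO libraries from cells given the solvent. The labels do not say whether replicates came from separate cultures, and the p-values then rest on a spread that may be technical.

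CBP and p300 are closely related lysine acetyltransferases. They are recruited by many transcription factors, acetylate histones at enhancers and promoters, and help to switch on inducible genes. Doxycycline, an antibiotic against bacterial ribosomes, also inhibits the ribosomes of mitochondria. In mammalian cells, mitochondrial translation stress is known to engage the integrated stress response, in which the transcription factor ATF4 raises genes for amino acid synthesis, amino acid transport and tRNA charging.

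Between 44476039 and 52173143 reads per library were counted in genes. Of 10 fibroblast markers, 9 were listed (Lum was not), and their summed level was 2310 to 2341 CPM (a count relative to library size) in KO Dox, 1781 to 1867 in KO DMSO, 8314 to 8403 in WT Dox and 7993 to 8051 in WT DMSO. The fibroblast markers were thus present in both genotypes but lower in KO, and in bulk RNA fewer cells of a type and less RNA per cell cannot be told apart. None of 5 endothelial and 6 epithelial markers was listed, and the 4 listed of 7 macrophage and leukocyte markers summed to 34.4 to 37.0 CPM in KO Dox, 38.2 to 40.5 in KO DMSO, 22.5 to 23.9 in WT Dox and 32.2 to 33.7 in WT DMSO. Crebbp and Ep300 transcripts were counted in every library, and counts over a whole gene do not check a deletion of part of it. Their interactions were 0.01 ± 0.0413 and -0.04 ± 0.0465 (SE), neither of them called. Libraries also differed in a way that partly follows the groups. Averaged over 290 processed pseudogenes, which are reverse-transcribed gene copies, log2 CPM was 1.05, 1.07 and 1.03 in KO Dox, 0.35, 1.08 and 1.04 in KO DMSO, 1.53, 1.61 and 1.61 in WT Dox and 0.89, 0.91 and 0.86 in WT DMSO. KO DMSO replicates 1 and 2 also had 7.63% and 6.65% of reads unmapped, against 1.85 to 2.09% in the other 10 libraries. A fit with a term for the low-pseudogene set (all WT DMSO libraries and KO DMSO replicate 1) was therefore also made. Its values stand beside the counts that it moves most. Because every WT DMSO library is in the set, the term was estimated only from KO DMSO replicate 1 against the other KO DMSO libraries. It thus rests on 1 library, the one with 7.63% unmapped, and the libraries it was compared with include the one with 6.65%. Values with the set term are a limited check for that reason.

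The doxycycline response differed between the genotypes for about 1 gene in 3. In edgeR's quasi-likelihood test, 4107 of 12637 genes had an interaction at a Benjamini-Hochberg adjusted p under 0.05 (32.5% of genes tested), of which 2295 were positive (18.2%) and 1812 negative (14.3%). Most of these differences were small, with a median absolute interaction of 0.22 on the log2 scale among the called genes. An interaction of at least 2-fold was called for 107 genes (0.847%), 30 positive (0.237%) and 77 negative (0.609%). Doxycycline itself changed 2740 genes in KO (21.7%) and 6706 genes in WT (53.1%). With the set term these were 2198 in KO and 2850 in WT, so the gap between the genotypes in the number of calls depends on it. The spread of the estimated responses was similar or wider with the set term. Across protein-coding genes whose log2 CPM averaged 3 or more, their SD was 0.125 in KO and 0.196 in WT, and 0.126 and 0.195 with the set term. Over all genes the SD was 0.211 and 0.291, and 0.213 and 0.319 with the set term. With that term each WT response also carries the error of KO DMSO replicate 1. These SDs therefore cannot show whether the true spread shrank. A fit without KO DMSO replicates 1 and 2 leaves replicate 3 alone in that group, so its numbers of calls are not given. Among the 4107 genes with a called interaction, the response was smaller in KO for 3322 and larger in KO for 785. With the set term 2865 interactions were called, and 2707 of them were among the 4107 with the same sign.

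Each gene was placed in a class by its calls in the separate responses. KO only held 921 genes, of which 475 rose and 446 fell in KO. WT only held 4887 genes, of which 2221 rose and 2666 fell in WT. A further 1403 genes moved the same way in both, 683 up and 720 down, and 416 moved in opposite directions. The remaining 5010 genes passed in neither. Passing in 1 genotype alone does not show that the responses differ, and the interaction was called for 44.2% of the KO only class, 55.0% of the WT only class, 31.9% of the genes that moved the same way and 2.95% of those that passed in neither. All 416 genes of the opposite class had a called interaction, and 304 of these fell in WT and rose in KO. The classes depend on the libraries. With the set term KO only held 1286 genes, WT only 1938, both 738 and opposite 174.

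**Figure D1:**
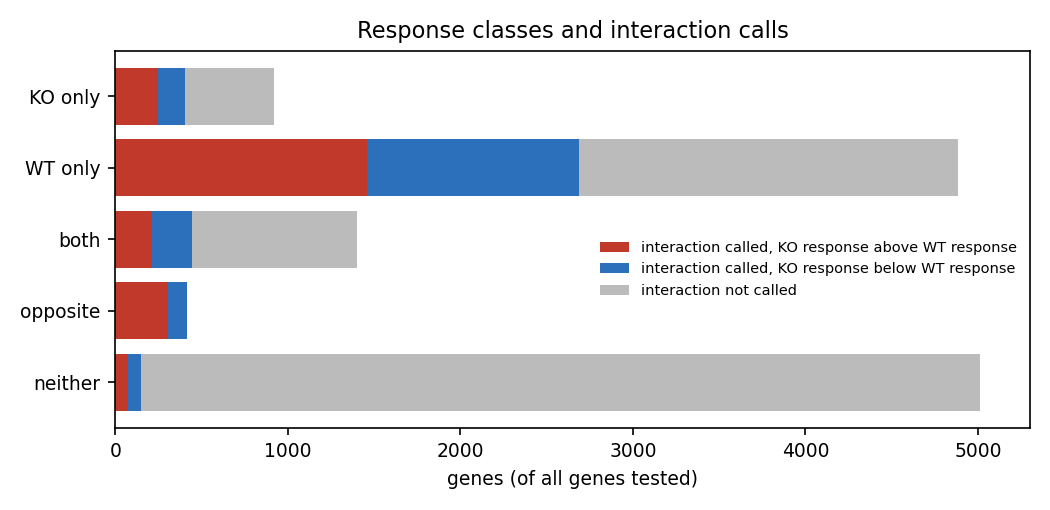
Number of genes (horizontal axis) in each response class, with the part whose interaction was called positive (red) or negative (blue) and the part without a called interaction (grey). The WT only class of 4887 genes is far longer than the KO only class of 921. The opposite class of 416 has no grey part, which its definition nearly fixes.

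The 2 responses ran together only loosely. Across all 12637 genes the KO and WT log2 responses, which share no library, had a Pearson correlation of 0.35 and a Spearman correlation of 0.34, and 62.8% of genes had the same sign. Without KO DMSO replicate 1 the Pearson correlation was 0.23. The limits of a log2 CPM averaging 3 or more and 10 or more counts in every library left 9390 protein-coding genes. Of these, 25 rose at least 2-fold in WT, with a median response of 0.27 in KO and 1.18 in WT. Without these limits 1.33% of all genes tested did. None of these 25 rose at least 2-fold in KO, 18 were called up there, and 22 had a called interaction. In the reverse direction, 10 of the 9390 genes fell at least 2-fold in KO, with a median response of -1.47 in KO and -0.47 in WT. Without these limits 0.182% of all genes tested did. All 10 had a called interaction. Falls of at least 2-fold in WT numbered 2. Rises of at least 2-fold in KO numbered 3, with medians of 1.12 in KO and 0.91 in WT. All these sets were picked by the size of 1 response, so their medians are descriptions.

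**Figure D2:**
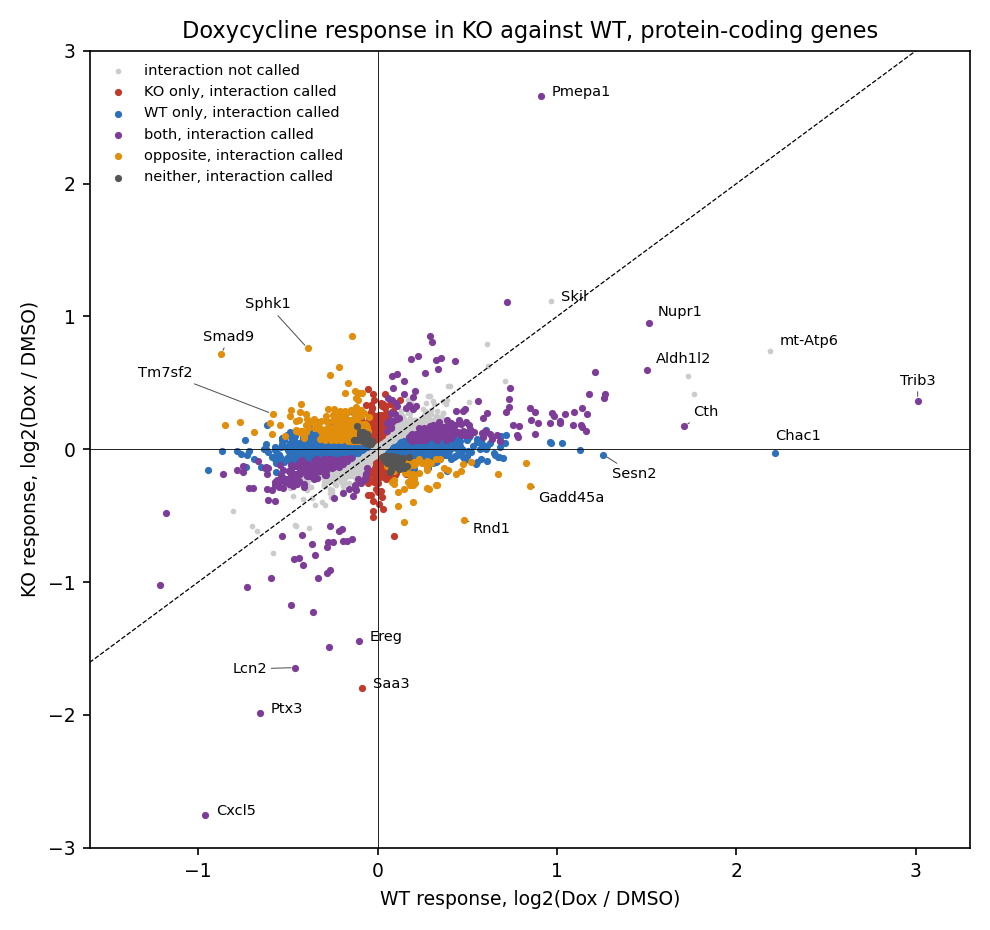
Log2 doxycycline response in KO (vertical axis) against WT (horizontal axis) for protein-coding genes whose log2 CPM averaged 3 or more, with 10 or more counts in every library. Each point is a gene, coloured by class where the interaction was called, and the dashed line marks equal responses. Trib3 and Chac1 lie far to the right near the horizontal axis, Cxcl5 and Ptx3 far below the line and Pmepa1 far above it.

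The integrated stress response was the group of genes with the most negative median interaction of the 25 lists described. In KO cells most of its genes rose little or not at all with doxycycline, while in WT cells they rose about 2-fold. Of 27 measured members of the list, 24 had a negative interaction, 0 a positive one and 3 none called, with a median of -0.76 against 0.01 over all genes tested. Among all genes tested 14.3% had a negative and 18.2% a positive interaction. In KO 17 rose and 1 fell (median 0.20), where 11.6% of all genes rose and 10.1% fell. In WT 23 rose and 2 fell (median 1.02), where 23.9% of all genes rose and 29.2% fell. For the 23 that rose in WT, the KO log2 response was at the median 20.6% of the WT log2 response. The negative calls numbered 23 with the set term.

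Promoters of this group are shown because the list is defined by targets of ATF4, which binds a composite element with C/EBP proteins. The element was searched as TGATGNAAN on both strands of 300-base windows, from 250 bases before to 50 bases after the start of each gene, taken from RefSeq (GRCm38.p6). Of the 27 measured members 23 had a window, and 9 of these held the element (39.1%), against 3.95% of 32851 windows in the reference table and 2.69% of the 9407 tested genes with a window. The 4 windows below run 5′ to 3′ on the gene's strand, with the matching letters in capitals. They belong to genes whose responses differed widely in KO, Chac1 and Trib3 with the largest losses, Asns, and Nupr1, which kept much of its rise. Chac1 lies at chr2:119350992-119351291 (plus strand), Trib3 at chr2:152344011-152344310 (minus strand), Asns at chr6:7693160-7693459 (minus strand) and Nupr1 at chr7:126625421-126625720 (minus strand). The RefSeq start of Nupr1 lies inside the longer extent that the annotation used for gene positions gives for it.
Chac1: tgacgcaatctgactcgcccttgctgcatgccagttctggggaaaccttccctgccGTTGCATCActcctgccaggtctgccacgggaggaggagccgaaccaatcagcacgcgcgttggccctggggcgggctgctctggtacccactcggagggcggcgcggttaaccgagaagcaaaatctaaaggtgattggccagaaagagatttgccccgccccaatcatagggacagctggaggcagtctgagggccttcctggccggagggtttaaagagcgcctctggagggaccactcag
Trib3: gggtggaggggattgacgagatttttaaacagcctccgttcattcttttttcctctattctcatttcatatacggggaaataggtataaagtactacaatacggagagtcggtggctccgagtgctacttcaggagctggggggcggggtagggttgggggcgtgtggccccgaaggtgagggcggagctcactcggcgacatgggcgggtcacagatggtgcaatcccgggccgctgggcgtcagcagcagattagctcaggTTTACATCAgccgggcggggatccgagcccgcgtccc
Asns: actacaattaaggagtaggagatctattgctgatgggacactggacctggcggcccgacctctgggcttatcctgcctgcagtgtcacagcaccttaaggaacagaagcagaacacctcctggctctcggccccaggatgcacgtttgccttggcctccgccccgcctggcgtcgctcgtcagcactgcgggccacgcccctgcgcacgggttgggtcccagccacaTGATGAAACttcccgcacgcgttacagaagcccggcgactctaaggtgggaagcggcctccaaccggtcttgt
Nupr1: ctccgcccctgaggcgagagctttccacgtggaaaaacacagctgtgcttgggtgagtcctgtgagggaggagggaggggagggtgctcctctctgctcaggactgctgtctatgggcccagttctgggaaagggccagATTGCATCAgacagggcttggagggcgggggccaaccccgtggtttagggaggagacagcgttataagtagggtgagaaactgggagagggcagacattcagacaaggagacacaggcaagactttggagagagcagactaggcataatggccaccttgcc
The match begins at position -194 in Chac1, 14 in Trib3, -23 in Asns and -111 in Nupr1, counted from the start site as 1. No match was found in the windows of Sesn2, Gpt2, Atf4 and Ddit3, whose rise was also smaller in KO. The same held for Slc38a2 and Cebpb, which had no called interaction. A match describes the letters of the window and does not show that a factor binds there.

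Chac1, which encodes an enzyme that degrades glutathione (chromosome 2, positions 119351229 to 119354381), had no called response in KO. It had 23.6, 24.3 and 21.7 CPM in KO Dox, 24.2, 22.9 and 23.9 in KO DMSO, 61.5, 64.6 and 66.1 in WT Dox and 13.5, 13.9 and 13.9 in WT DMSO. All WT Dox libraries were far above the WT DMSO libraries, the KO groups overlapped, and the KO DMSO libraries lay above the WT DMSO libraries. The log2 response was -0.03 ± 0.0435 in KO (95% limits -0.12 to 0.06) and 2.22 ± 0.0426 in WT, an interaction of -2.24 ± 0.0616 (SE, n = 3 libraries a group; adjusted p = 5.1e-18, edgeR).

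Trib3, which encodes a pseudokinase and is a known ATF4 target (chromosome 2, positions 152337422 to 152344032), had the most negative interaction of the genes named here. Its level was 9.41, 8.88 and 8.38 CPM in KO Dox, 7.05, 7.30 and 6.36 in KO DMSO, 98.2, 101 and 103 in WT Dox and 12.9, 13.1 and 11.5 in WT DMSO. It rose in both genotypes without overlap of the groups, and all WT Dox libraries were far above all others. The response was 0.37 ± 0.0675 in KO and 3.01 ± 0.0436 in WT, with an interaction of -2.64 ± 0.0842 (adjusted p = 4.9e-17, edgeR).

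Asns, asparagine synthetase (chromosome 6, positions 7675169 to 7693254), had 214, 222 and 215 CPM in KO Dox, 189, 193 and 191 in KO DMSO, 568, 593 and 581 in WT Dox and 273, 281 and 266 in WT DMSO. The rise in KO was small but without overlap, and the interaction was -0.90 ± 0.0340 (adjusted p = 1.2e-15, edgeR). Nupr1, a small stress-induced chromatin protein gene (chromosome 7, positions 126623249 to 126630861), had 9.08, 9.38 and 10.6 CPM in KO Dox, 5.35, 4.80 and 4.85 in KO DMSO, 29, 32.7 and 33.3 in WT Dox and 11, 11.1 and 11.2 in WT DMSO. It kept more of its response than Asns, at 0.95 ± 0.0768 in KO and 1.51 ± 0.0568 in WT, and its interaction of -0.56 ± 0.0979 was still called (adjusted p = 1.1e-04, edgeR). Asns and Nupr1 were chosen after their values were seen, as were Atf4 and Ddit3.

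Atf4 transcripts themselves had 267, 260.1 and 261 CPM in KO Dox, 236, 244 and 247 in KO DMSO, 624, 643 and 640.1 in WT Dox and 343, 354 and 342 in WT DMSO, with responses of 0.12 in KO and 0.88 in WT and an interaction of -0.76 ± 0.0322. Ddit3, which encodes the transcription factor CHOP, had responses of 0.25 in KO and 0.98 in WT, although its level was higher in KO than in WT in both conditions. Sesn2, an inhibitor of mTORC1 signalling, had 46.2, 47.5 and 45.3 CPM in KO Dox, 47.9, 47.4 and 47.4 in KO DMSO, 86.7, 83.4 and 83.6 in WT Dox and 33.5, 36.1 and 36.6 in WT DMSO, and its KO groups overlapped. Its interaction was -1.30 ± 0.0458 and that of Cth, the enzyme that makes cysteine from cystathionine, was -1.54 ± 0.0628. Cth had 7.73, 8.22 and 7.67 CPM in KO Dox, 6.99, 6.75 and 7.18 in KO DMSO, 101, 103 and 103 in WT Dox and 31, 31 and 31.9 in WT DMSO, so KO cells expressed it at a low level in both conditions. Gpt2, a mitochondrial alanine transaminase, was at -0.97 ± 0.0383 and the cystine transporter gene Slc7a11 at -0.85 ± 0.117. Slc38a2, an amino acid transporter gene, and Cebpb, which encodes a partner of ATF4, had no called interaction, at 0.07 (95% limits 0.00 to 0.14) and 0.16 (-0.04 to 0.36), although each passed in at least 1 alternative.

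**Figure D3:**
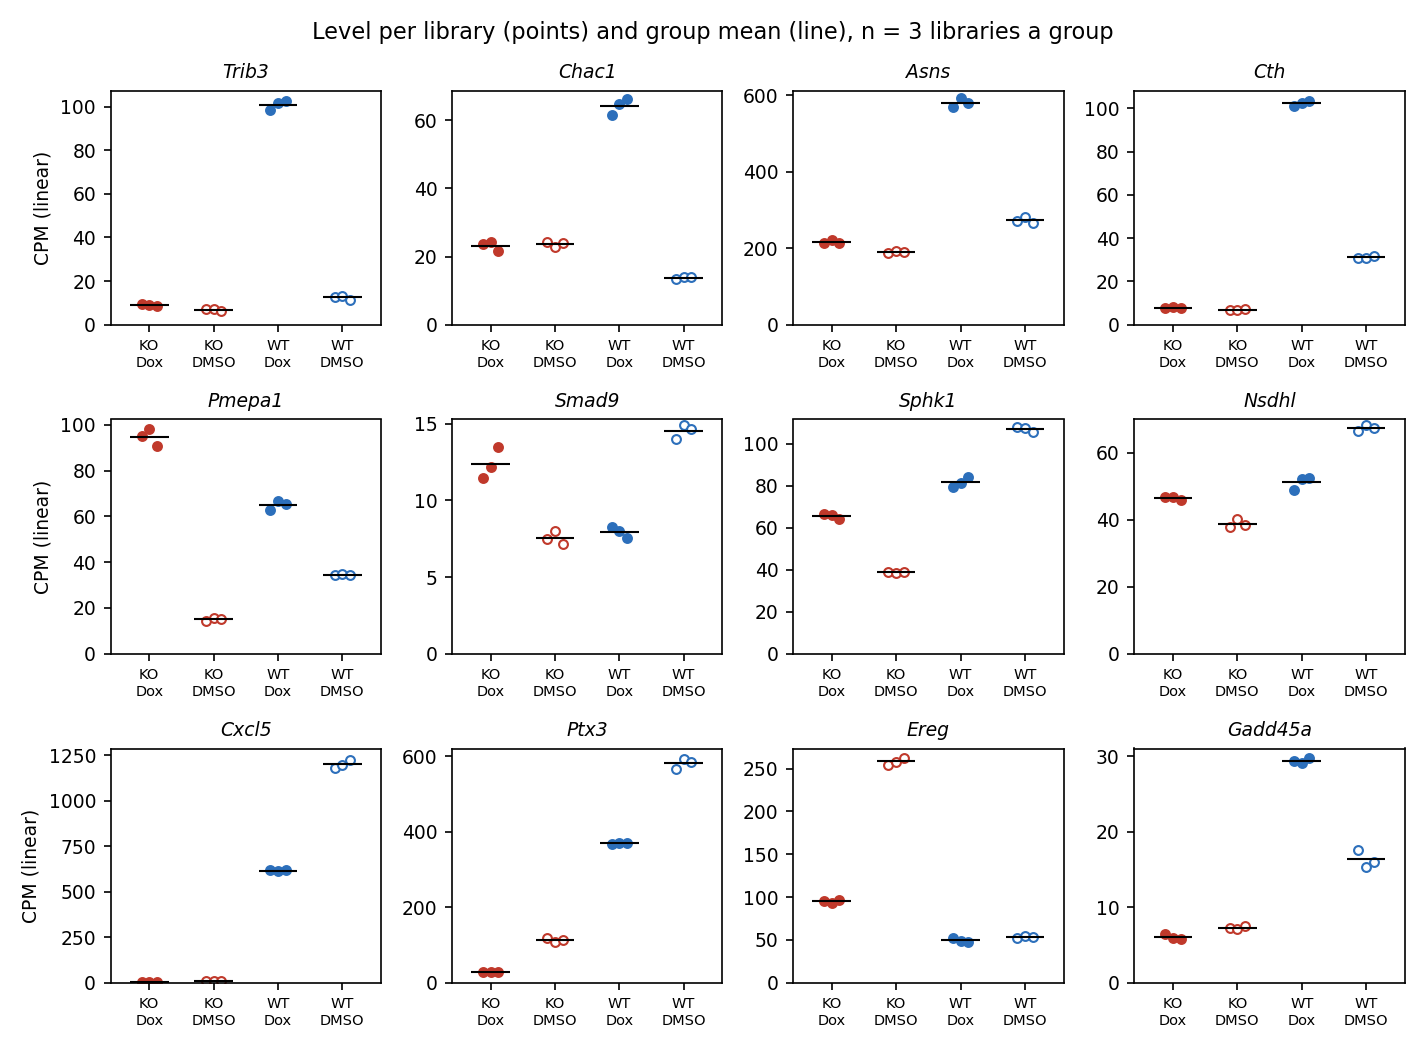
CPM on a linear axis in each library (points) for 12 genes, with the group mean as a line and groups in the order KO Dox, KO DMSO, WT Dox, WT DMSO (n = 3 libraries each). Chac1 is near 23 to 24 CPM in both KO groups and above 61 in WT Dox, and Pmepa1 is above 90 CPM in KO Dox alone.

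Serine synthesis, one-carbon metabolism and tRNA charging followed the same pattern. Of 20 cytosolic aminoacyl-tRNA synthetase genes, which load tRNAs with amino acids, 18 had a negative interaction and 0 a positive one (median -0.44). Over all genes tested 14.3% were negative and 18.2% positive. In KO 13 rose and 0 fell (median 0.08), and in WT 19 rose and 1 fell (median 0.51). Tars, for threonine, had 169, 165 and 167 CPM in KO Dox, 147, 148 and 148 in KO DMSO, 459, 461 and 458 in WT Dox and 260.4, 270.3 and 269 in WT DMSO, an interaction of -0.61 ± 0.0295. Sars, for serine, had responses of 0.02 in KO, where its groups overlapped, and 0.68 in WT. Qars, for glutamine, and Farsa, a subunit of the phenylalanine enzyme, had no called interaction (0.07 and -0.09). Of the 12 synthetase genes with a promoter window, 5 held the element TGATGNAAN (41.7%).

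Of 19 serine and one-carbon genes, 14 had a negative and 2 a positive interaction (median -0.27), against 14.3% and 18.2% of all genes tested. Psph, the last enzyme of serine synthesis, had 37.2, 38 and 35.3 CPM in KO Dox, 35.3, 32.6 and 32.7 in KO DMSO, 77.4, 84.7 and 81.8 in WT Dox and 35.8, 36.8 and 36.4 in WT DMSO. The KO groups nearly touched and the WT groups were far apart. Its interaction was -1.03 ± 0.0542. Mthfd2, a mitochondrial folate enzyme, had responses of 0.28 in KO and 1.09 in WT, and Psat1, an earlier step of serine synthesis, 0.09 in KO and 0.78 in WT. Mtr, methionine synthase, had no called interaction (-0.15).

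Mitochondrial genes shared this pattern only in part. Of 24 mitochondrial chaperones and proteases 8 had a negative and 1 a positive interaction, and 15 none, where 14.3% of all genes tested were negative and 18.2% positive. Lonp1, a matrix protease, had 236, 231 and 230.2 CPM in KO Dox, 242, 238 and 237 in KO DMSO, 309.5, 315 and 313 in WT Dox and 198, 200.3 and 197 in WT DMSO. It was raised in WT alone, with responses of -0.04 in KO and 0.66 in WT and an interaction of -0.69 ± 0.0288. Dnaja3, a co-chaperone of the matrix, was at -0.40 ± 0.0357, while the inner membrane protease Yme1l1 was at -0.01 (95% limits -0.07 to 0.06). Of 40 nuclear-encoded respiratory chain genes 4 had a positive and 1 a negative interaction and 35 none, with a median of 0.02. Of 32 mitochondrial ribosomal protein genes 13 had a negative and 1 a positive interaction, but with the set term these were 4 and 1, and without WT Dox replicate 3 the negative calls were 8.

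Cholesterol synthesis and uptake went the other way. All 24 measured genes of the list had a positive interaction (24 also with the set term), against 18.2% of all genes tested, with a median of 0.37. In KO 16 rose and 0 fell (median 0.16), while in WT 0 rose and 22 fell (median -0.22), so that 14 genes of the list belong to the opposite class. Tm7sf2, a sterol reductase (chromosome 19, positions 6062821 to 6068373), had 29.9, 29 and 30.0 CPM in KO Dox, 24.5, 25.3 and 24.2 in KO DMSO, 11.9, 12.2 and 11.7 in WT Dox and 18.5, 17.8 and 17.3 in WT DMSO. Its groups were apart in both genotypes, in opposite directions, and the interaction was 0.85 ± 0.0579 (adjusted p = 5.7e-11, edgeR). Nsdhl, a sterol dehydrogenase on the X chromosome, had 47, 46.9 and 45.9 CPM in KO Dox, 37.9, 40.1 and 38.5 in KO DMSO, 48.9, 52.3 and 52.5 in WT Dox and 66.6, 68.5 and 67.3 in WT DMSO and an interaction of 0.66 ± 0.0450. Acat2, which makes acetoacetyl-CoA at the start of the pathway, changed in WT alone, at 0.01 in KO and -0.51 in WT. The individual changes were modest, with Nsdhl at 0.26 in KO and -0.40 in WT.

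Genes of G2 and mitosis had the same direction. Of 30 members 29 had a positive interaction, against 18.2% of all genes tested, and 1 none (median 0.27). With the set term 24 were positive. In KO 9 rose and 0 fell (median 0.07), and in WT 0 rose and 28 fell (median -0.20). The KO rises depended on single libraries, with 4 without KO Dox replicate 1 and 13 without WT Dox replicate 1. In WT 0 rose and 14 fell with the set term. Kif2c, a microtubule depolymerase of the spindle, had 18.5, 18.7 and 19.5 CPM in KO Dox, 19.6, 17.9 and 18.2 in KO DMSO, 68.1, 70.3 and 69.9 in WT Dox and 92.5, 92.4 and 93.5 in WT DMSO. Its KO groups overlapped and its WT groups did not, and the interaction was 0.45 ± 0.0491. Bub1b, a spindle checkpoint kinase, had an interaction of 0.29 ± 0.0352. Of 30 S phase genes, by contrast, 6 had a positive and 1 a negative interaction and 23 none, and with the set term 4 and 1. Over all genes tested 18.2% were positive and 14.3% negative, so the positive count lies near that share. The replication clamp gene Pcna was at -0.01 (95% limits -0.07 to 0.06), while Rrm2, a subunit of ribonucleotide reductase, was at 0.28 ± 0.0346.

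Inflammatory genes fell in both genotypes, and on the log2 scale they fell further in KO. Of 29 measured NF-kappa B inflammatory genes, 18 had a negative interaction, 3 a positive one and 8 none (median -0.31). Among all genes tested 14.3% had a negative and 18.2% a positive interaction. In KO 26 fell and 0 rose (median -0.82), where 10.1% of all genes fell and 11.6% rose. In WT 25 fell and 3 rose (median -0.29), where 29.2% of all genes fell and 23.9% rose. A motif of the NF-kappa B type (GGG, any 2 bases, then TTTCC), searched on both strands, was held by 7 of the 20 members with a promoter window (35%), against 1.63% of all windows and 2.06% of those of tested genes. Because the list was drawn up around NF-kappa B, this share only describes the chosen members.

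Cxcl5, a neutrophil-attracting chemokine gene (chromosome 5, positions 90759360 to 90761624), had 1.56, 1.78 and 1.56 CPM in KO Dox, 10.9, 10.8 and 11.3 in KO DMSO, 617, 616 and 617 in WT Dox and 1179.8, 1193 and 1225 in WT DMSO. Both genotypes fell without overlap, and the KO libraries were far below the WT libraries in both conditions. The response was -2.75 ± 0.0643 in KO and -0.96 ± 0.0206 in WT, an interaction of -1.79 ± 0.0711 (adjusted p = 2.9e-15, edgeR). In CPM the fall was larger in WT, with differences of -9.39 in KO and -583 in WT, so the direction of the interaction holds for ratios alone. The same change of direction between scales was seen for Ptx3, a secreted pattern recognition protein gene, which had 28.6, 28.3 and 28.4 CPM in KO Dox, 118, 107 and 113 in KO DMSO, 368, 369.6 and 370.4 in WT Dox and 567, 592 and 584 in WT DMSO and a log2 interaction of -1.33 ± 0.0413. Among all 4107 called genes 4035 kept their sign on the CPM scale and 72 did not.

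Lcn2, an iron-binding acute-phase protein gene, fell further in KO on both scales. It had 463, 462 and 455 CPM in KO Dox, 1455, 1427 and 1429.7 in KO DMSO, 529, 564 and 556 in WT Dox and 761, 746 and 759 in WT DMSO, and its interaction was -1.19 ± 0.0317 (adjusted p = 5.1e-18, edgeR). KO DMSO libraries were the highest of the 4 groups, and KO Dox libraries the lowest. Lif, a cytokine gene of the interleukin-6 family, had 14.7, 16.2 and 16 CPM in KO Dox, 45.4, 42.8 and 43.9 in KO DMSO, 30.1, 28.6 and 28.2 in WT Dox and 36.2, 34.5 and 34 in WT DMSO and an interaction of -1.22 ± 0.0584. Saa3, an acute-phase apolipoprotein gene, passed in KO alone, with 3.38, 2.70 and 3.18 CPM in KO Dox, 11.1, 9.35 and 11.6 in KO DMSO, 40.0, 41.1 and 39.6 in WT Dox and 44, 41.2 and 42.9 in WT DMSO. Its responses were -1.80 ± 0.0857 in KO and -0.09 ± 0.0453 in WT. Ereg, which encodes the growth factor epiregulin and belongs to no list, had 95.3, 93.3 and 96.7 CPM in KO Dox, 255, 258 and 263 in KO DMSO, 52, 48.6 and 47.8 in WT Dox and 52.3, 54 and 53.2 in WT DMSO. KO Dox libraries were below KO DMSO but above both WT groups, and the interaction was -1.34 ± 0.0405 (adjusted p = 3.1e-17, edgeR).

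Not every inflammatory gene followed. Nfkb2, a subunit of NF-kappa B, had responses of -0.18 in KO and -0.23 in WT and an interaction of 0.05 (95% limits -0.02 to 0.12). Cxcl12, a chemokine gene of stromal cells, was at 0.08 (0.01 to 0.15) and passed with the set term alone. The inhibitor of apoptosis gene Birc3, the transcription factor gene Cebpd and Nfkb1 leaned the other way, with interactions of 0.34, 0.19 and 0.10. Of 21 interferon-stimulated genes 5 had a negative and 2 a positive interaction, and 14 none, where 14.3% of all genes tested were negative and 18.2% positive. Cxcl10, a chemokine gene induced by interferon, fell in KO (-0.77) and rose in WT (0.21), an interaction of -0.98 ± 0.126. Its WT response was not called with the set term (0.38, adjusted p = 0.108, edgeR).

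Targets of TGF-beta and YAP, which fibroblasts raise during matrix production, had mostly positive interactions. Of 25 measured members 15 were positive, 2 negative and 8 not called (median 0.31), where 18.2% of all genes tested were positive and 14.3% negative. In KO 15 rose and 2 fell (median 0.20), and in WT 8 rose and 12 fell (median -0.06). Pmepa1, a membrane protein gene that TGF-beta induces and that restrains SMAD signalling (chromosome 2, positions 173224458 to 173276533), had the largest called interaction of the list. It had 95.2, 98.1 and 90.8 CPM in KO Dox, 14.2, 15.5 and 15.3 in KO DMSO, 62.6, 66.8 and 65.4 in WT Dox and 34.6, 35 and 34.2 in WT DMSO. KO Dox libraries were the highest of all and KO DMSO libraries the lowest, with no overlap between any of the groups. The response was 2.66 ± 0.0389 in KO and 0.91 ± 0.0357 in WT, an interaction of 1.75 ± 0.0542 (adjusted p = 3.1e-17, edgeR).

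The other called members of the list had smaller interactions. Acta2, smooth muscle actin, had 43.1, 44.3 and 42.3 CPM in KO Dox, 28.1, 28.5 and 27.8 in KO DMSO, 173, 189.9 and 187 in WT Dox and 205, 223 and 209 in WT DMSO, a rise in KO and a fall in WT (interaction 0.83 ± 0.0538). Its WT response of -0.22 with the set term was not called (adjusted p = 0.057, edgeR). Thbs1, thrombospondin, had an interaction of 0.66 ± 0.0343. Skil, a repressor of SMAD proteins, rose about 2-fold in both genotypes, with responses of 1.12 ± 0.0356 in KO and 0.96 ± 0.0485 in WT. Its interaction of 0.15 (95% limits before adjustment 0.03 to 0.28; adjusted p = 0.059, edgeR) was not called, although it passed in 5 of 23 alternatives. Of 27 fibroblast matrix genes 15 had a positive and 0 a negative interaction (median 0.16), against 18.2% and 14.3% of all genes tested. Col1a1, a chain of type I collagen, had 339, 343 and 336 CPM in KO Dox, 239, 228 and 228 in KO DMSO, 1794, 1768 and 1784 in WT Dox and 1684, 1699.7 and 1675 in WT DMSO and an interaction of 0.47 ± 0.0297, from a level several times lower in KO. Fn1, fibronectin, was at -0.01 (-0.09 to 0.06). The summed fibroblast markers given above include members of this list and were higher with doxycycline in both genotypes, and their part in it was not tested.

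**Figure D4:**
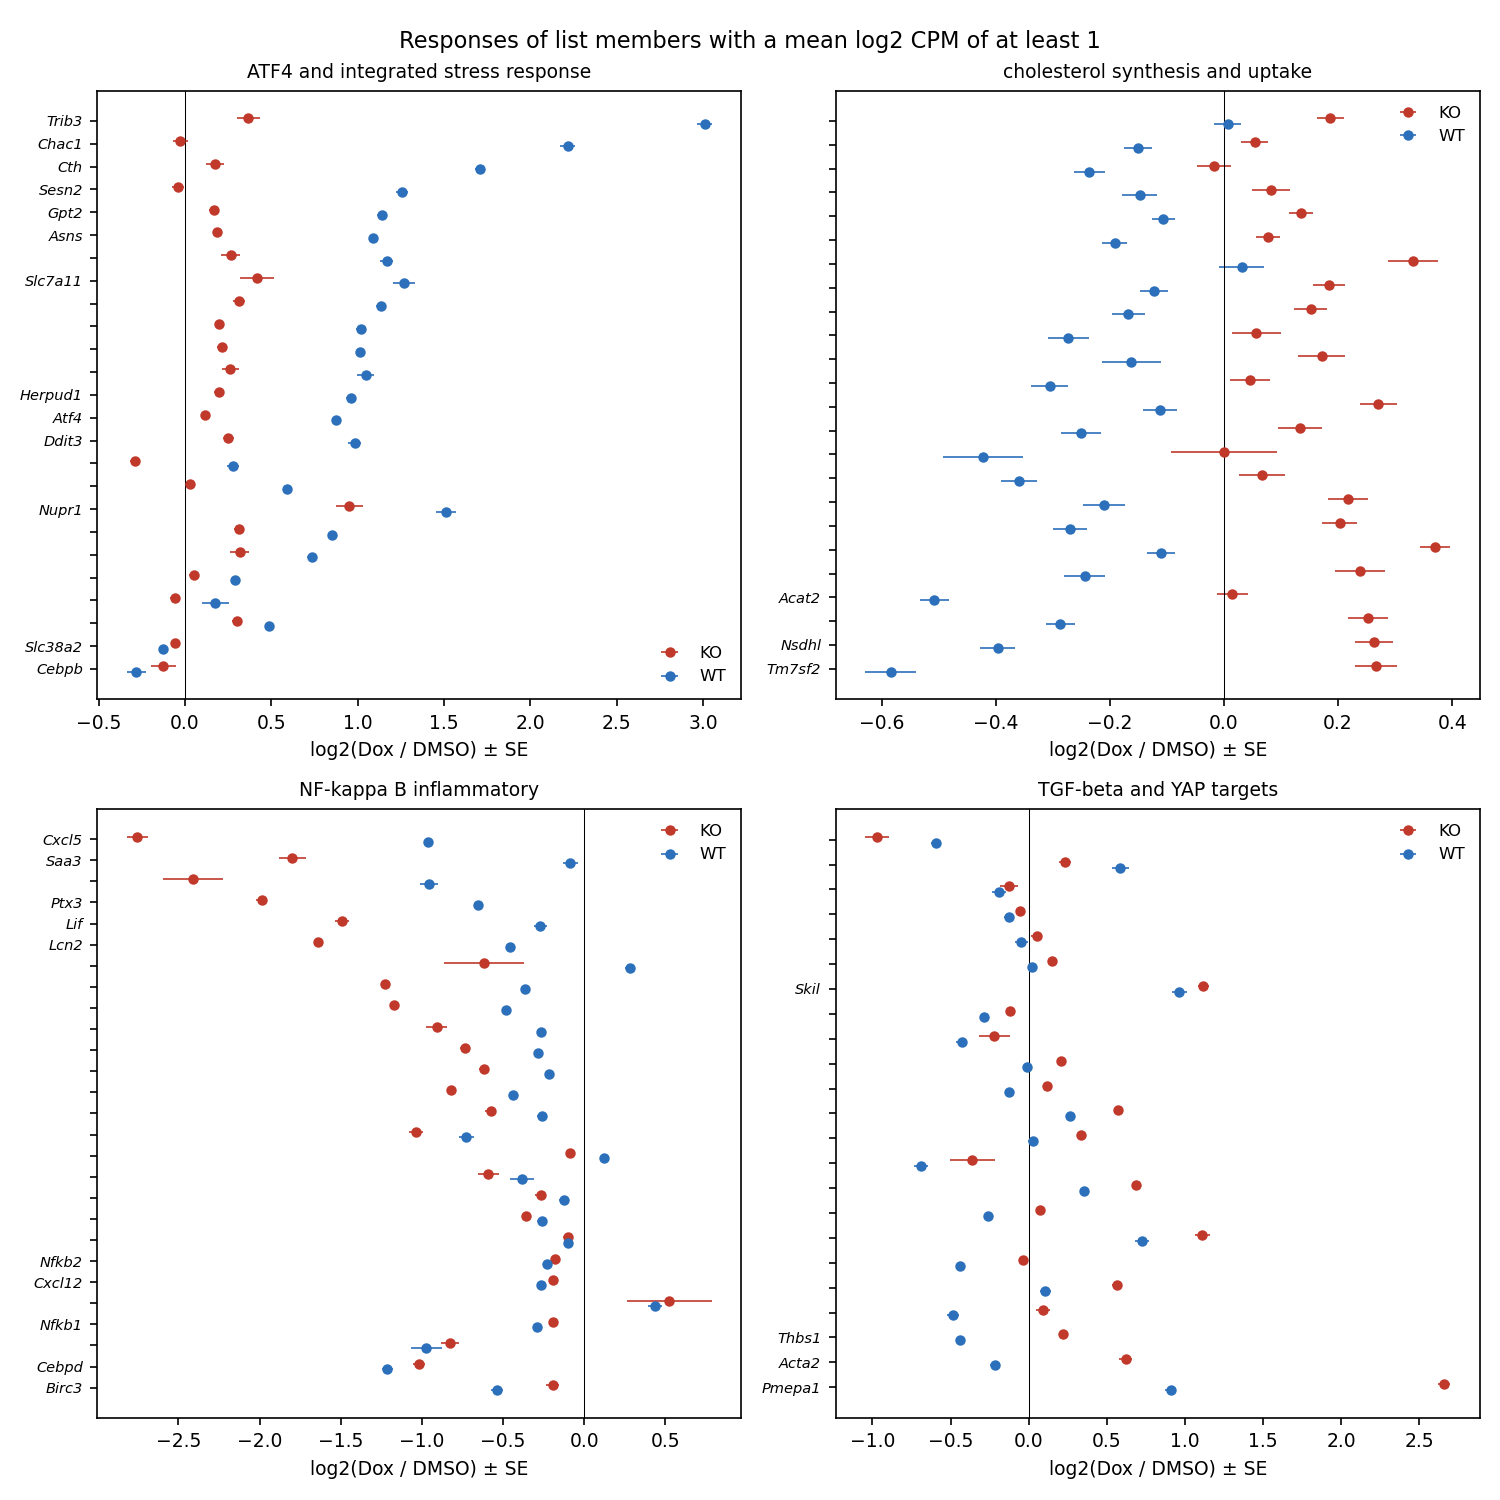
Log2 response to doxycycline, with its SE, in KO (red) and WT (blue) for members of 4 lists whose log2 CPM averaged 1 or more, ordered by interaction from the most negative at the top, with labels for genes named in the text. In the integrated stress response panel most red points lie left of the blue ones, and in the cholesterol panel all red points lie to the right.

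The opposite class included genes outside those lists. Smad9, a SMAD of the bone morphogenetic protein pathway (chromosome 3, positions 54755582 to 54801257), had 11.4, 12.2 and 13.5 CPM in KO Dox, 7.46, 8.03 and 7.14 in KO DMSO, 8.23, 8.02 and 7.57 in WT Dox and 14, 14.9 and 14.7 in WT DMSO. The KO Dox libraries were above KO DMSO and the WT Dox libraries below WT DMSO, and the KO Dox libraries stayed below WT DMSO. The responses were 0.72 ± 0.0638 in KO and -0.87 ± 0.0627 in WT, an interaction of 1.59 ± 0.0895 (adjusted p = 1.9e-12, edgeR). Sphk1, which makes sphingosine 1-phosphate, had 66.6, 66.3 and 64.4 CPM in KO Dox, 39.1, 38.5 and 38.9 in KO DMSO, 79.6, 81.5 and 84.3 in WT Dox and 108, 108 and 106 in WT DMSO and an interaction of 1.15 ± 0.0390. Lxn, a carboxypeptidase inhibitor gene, was at 0.18 in KO and -0.85 in WT. Kctd11 was at 0.85 in KO and -0.14 in WT, where its groups overlapped.

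In the other direction, Gadd45a, a DNA damage and stress gene, fell in KO and rose in WT. It had 6.40, 5.94 and 5.76 CPM in KO Dox, 7.22, 7.09 and 7.56 in KO DMSO, 29.3, 29.1 and 29.9 in WT Dox and 17.6, 15.4 and 16.1 in WT DMSO, with an interaction of -1.12 ± 0.0815 (adjusted p = 1.8e-10, edgeR). Rnd1, a small GTPase gene, was at -0.53 ± 0.0377 in KO and 0.48 ± 0.0438 in WT. Ero1l, an oxidase of disulphide formation in the endoplasmic reticulum, had 135, 131 and 134 CPM in KO Dox, 143, 144 and 144 in KO DMSO, 81.1, 78.4 and 76.9 in WT Dox and 45.4, 43.6 and 44 in WT DMSO. Its KO level was higher throughout, and its interaction was -0.94 ± 0.0370.

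The WT only class also held genes of other functions. Klf4, a transcription factor gene, had 4.16, 4.20 and 3.29 CPM in KO Dox, 3.80, 3.67 and 4.16 in KO DMSO, 24.4, 26.1 and 24.7 in WT Dox and 10.8, 12 and 11.5 in WT DMSO and an interaction of -1.13 ± 0.110. Otub2, a deubiquitinating enzyme gene, was at 0.05 in KO and 1.03 in WT. Both overlapped between the KO groups. Among those that fell in WT alone, Npnt, a matrix ligand of integrins, had 13.1, 12.9 and 12.7 CPM in KO Dox, 13.6, 12.8 and 12.6 in KO DMSO, 11.3, 10.1 and 10.8 in WT Dox and 18.6, 19.4 and 20.6 in WT DMSO and an interaction of 0.86 ± 0.0740. Siglecg, a sialic acid receptor gene, was at 0.80 ± 0.0523 and Abi3bp, a matrix protein gene, at 0.80 ± 0.0790. Serpina3g, a protease inhibitor gene, had 0.456, 0.693 and 0.501 CPM in KO Dox, 0.571, 0.662 and 0.616 in KO DMSO, 173, 175 and 178 in WT Dox and 339, 336 and 337 in WT DMSO. It has close relatives that can share its reads and under 1 CPM in KO, and its call was lost without KO Dox replicate 2 (0.57, adjusted p = 0.082, edgeR).

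Other genes passed in KO alone. Olfml3, a secreted matrix protein gene, had 15.4, 15.4 and 15.3 CPM in KO Dox, 11, 11.4 and 11.2 in KO DMSO, 94.3, 102 and 100.4 in WT Dox and 105, 99.6 and 103 in WT DMSO and an interaction of 0.50 ± 0.0565. Il11, a cytokine gene, was at 0.42 in KO and -0.02 in WT, and Spry1, an inhibitor of receptor tyrosine kinase signalling, at 0.37 in KO and -0.02 in WT. The transcript A930004D18Rik had an interaction of 0.39 ± 0.0572. Among the fallers Sdc4, a cell surface proteoglycan gene, had 806, 795 and 804 CPM in KO Dox, 1158, 1121 and 1139 in KO DMSO, 514, 528 and 519 in WT Dox and 532, 527 and 532 in WT DMSO. Its KO groups were far apart and its WT groups overlapped, with an interaction of -0.48 ± 0.0281 (adjusted p = 3.8e-12, edgeR). Stard5, a lipid transfer protein gene, was at -0.48 ± 0.0683. Gprin3 was at -0.74 ± 0.162, and at -0.55 without KO DMSO replicates 1 and 2, where replicate 3 alone was left in that group.

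Some genes moved the same way in both genotypes but more in one. Selenop and Gpx1, which encode selenium-containing proteins that carry selenium and reduce peroxides, fell more in WT. Selenop had 97.4, 95.8 and 96.1 CPM in KO Dox, 107, 107 and 109 in KO DMSO, 62.3, 62.9 and 61.1 in WT Dox and 105, 108 and 107 in WT DMSO and an interaction of 0.63 ± 0.0335, and Gpx1 one of 0.62 ± 0.0405. The small GTPase gene Rasl11a and the calcineurin regulator gene Rcan2 had interactions of 0.70 ± 0.137 and 0.68 ± 0.0824. Fbln2, a matrix glycoprotein gene, rose more in KO on the log2 scale, with 189, 196 and 187 CPM in KO Dox, 109, 108 and 110.2 in KO DMSO, 1972, 1977 and 1969 in WT Dox and 1604, 1614 and 1578 in WT DMSO. Its interaction of 0.50 ± 0.0302 turns round in CPM, where it gained 81.8 in KO and 374 in WT, and the same holds for Tmem119, a membrane protein gene at 0.49 ± 0.0939.

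For 956 of the 1403 genes that moved the same way no difference was called, which does not show that the responses are equal. Rgs16, a regulator of G protein signalling, had 10.8, 11.4 and 11.2 CPM in KO Dox, 15.9, 15.9 and 17.9 in KO DMSO, 49.7, 54.3 and 54.8 in WT Dox and 87.9, 84.6 and 85.7 in WT DMSO. It fell in both without overlap, and its interaction was 0.12 (95% limits -0.02 to 0.26). Phlda1 was at -0.11 (-0.24 to 0.02) and passed without WT Dox replicate 1, and Tmcc3 was at -0.20 (-0.37 to -0.02) and passed in 4 of 23 alternatives. Gzme, a granzyme gene, had 2.07, 1.67 and 1.49 CPM in KO Dox, 2.34, 3.10 and 2.57 in KO DMSO, 150.4, 164 and 162 in WT Dox and 252, 254 and 253 in WT DMSO. Its interaction was 0.06 (-0.24 to 0.36), from few counts in KO. The mitochondrial transcript mt-Nd2, a subunit of complex I, had 4342, 4034 and 4222 CPM in KO Dox, 2556, 2767 and 2816 in KO DMSO, 3193, 3442 and 3403 in WT Dox and 2157, 2185 and 2200.2 in WT DMSO and an interaction of 0.01 (-0.10 to 0.12).

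Mitochondrially encoded transcripts differed widely in their errors. Of 12 measured, 3 had a negative and 1 a positive interaction, where 14.3% of all genes tested were negative and 18.2% positive. The 3 negative calls were lost with the set term, whereas without KO DMSO replicate 1 there were 7 negative and 1 positive. The abundant transcript mt-Co1, for the catalytic subunit of cytochrome oxidase, fell in both, at -0.29 in KO and -0.41 in WT (interaction 0.12 ± 0.0333). Without KO DMSO replicates 1 and 2, which leaves replicate 3 alone in that group, the interaction was 0.08. The ATP synthase transcript mt-Atp6 had an interaction of -1.45 ± 0.594, which did not pass (adjusted p = 0.099, edgeR). Near-identical copies in the nuclear genome can take reads of these genes, so their values are uncertain.

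The remaining lists had fewer calls or calls in both directions. Positive against negative interactions were 8 and 5 of 24 endoplasmic reticulum stress genes, 5 and 4 of 18 heat shock genes, 4 and 8 of 19 p53 targets, 3 and 10 of 23 NRF2 antioxidant genes and 4 and 7 of 28 glycolysis and hypoxia-inducible genes. They were 9 and 8 of 28 immediate-early genes, 6 and 5 of 20 matrix proteases and inhibitors, 2 and 9 of 30 lysosomal genes, 3 and 2 of 21 lysine acetyltransferases and 0 and 5 of 29 cytosolic ribosomal proteins. Over all genes tested 18.2% were positive and 14.3% negative, and several of these shares lie near that. With the set term the counts were 4 and 2 for heat shock, 6 and 8 for immediate-early genes, 2 and 1 for lysine acetyltransferases and 0 and 1 for cytosolic ribosomal proteins. The ribosomal count also rested on single libraries, with 16 negative without WT Dox replicate 1 and 2 without WT Dox replicate 3. Positive endoplasmic reticulum stress genes numbered 5 without KO DMSO replicate 3, and positive lysine acetyltransferases 6 without WT Dox replicate 1. Herpud1, which is on the endoplasmic reticulum stress list and the integrated stress response list, was at -0.76 ± 0.0423, while the chaperone genes Calr, at 0.23 ± 0.0276, and Pdia6, at 0.23 ± 0.0293, went the other way. Lists can share members in this way. The most negative interactions on the p53 and NRF2 lists, -1.30 and -0.85, equal those given above for Sesn2 and Slc7a11. Nr4a1, an orphan nuclear receptor gene of the immediate-early class, had 258, 247 and 242 CPM in KO Dox, 409, 399 and 394 in KO DMSO, 31.9, 33.3 and 32.8 in WT Dox and 38.6, 37.1 and 36.4 in WT DMSO and an interaction of -0.49 ± 0.0425, and Dusp6, a phosphatase of ERK, was at 0.45 ± 0.0351. Of 19 HOX genes, which pattern the embryo, 11 had a positive and 1 a negative interaction, and 4 and 1 with the set term. The positive count was 7 without KO DMSO replicate 3 and 7 without WT DMSO replicate 1. Hoxa5 was at 0.56 ± 0.0394.

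**Figure D5:**
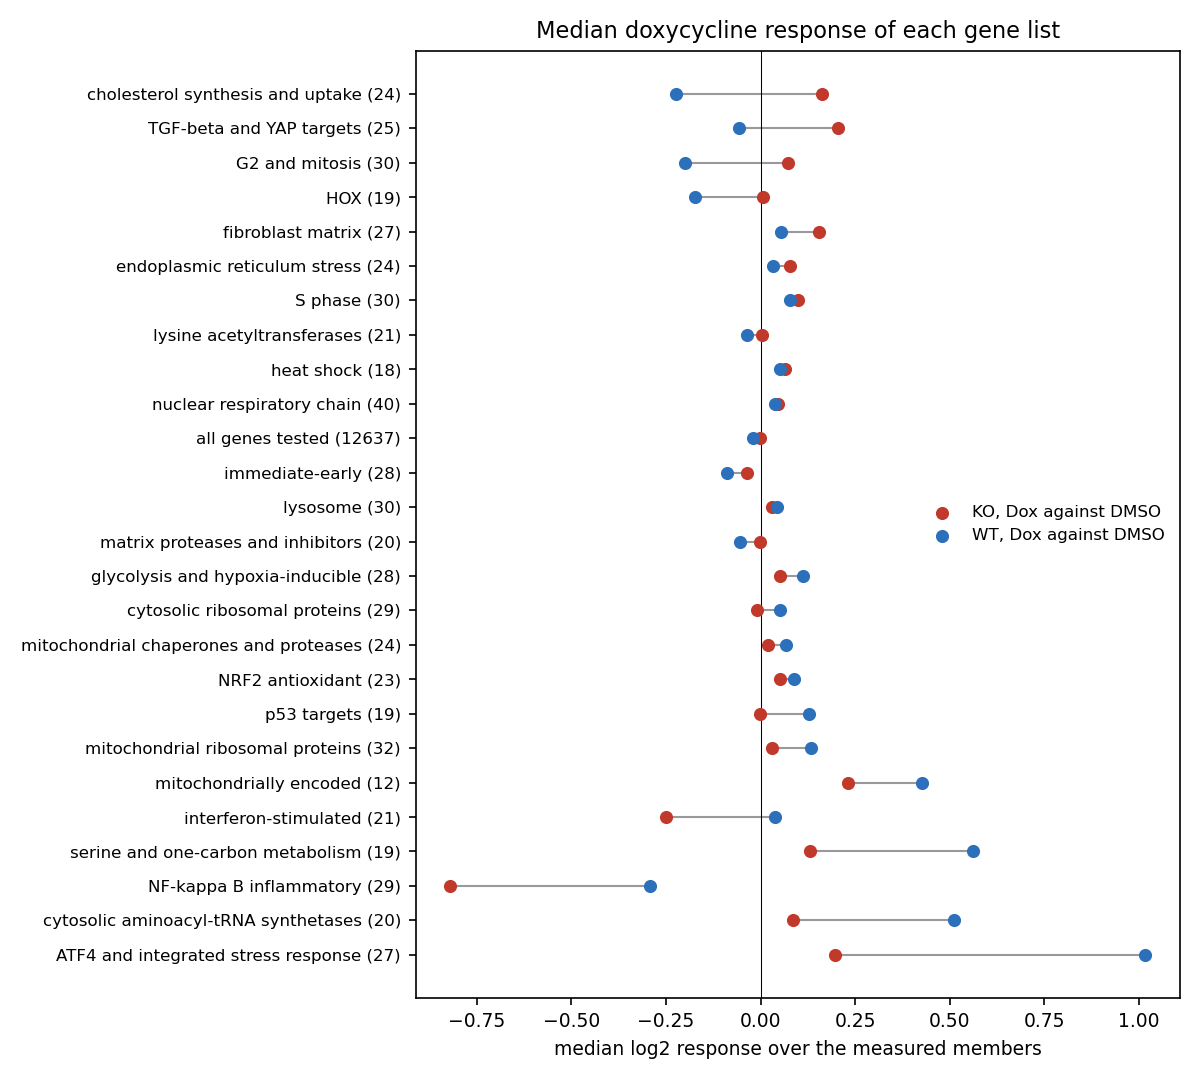
Median log2 response to doxycycline in KO (red) and WT (blue) over the measured members of each list (number in brackets), ordered by median interaction, with all genes tested for comparison. The integrated stress response lies at the bottom, at 0.20 in KO and 1.02 in WT, and cholesterol synthesis and uptake at the top, at 0.16 in KO and -0.22 in WT.

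The largest interactions included genes that moved with the low-pseudogene set. Of the 107 genes with an interaction of at least 2-fold, 66 were protein-coding (28 positive and 38 negative), 36 were processed pseudogenes, all negative, and 5 were of other types. The 36 pseudogenes had a median interaction of -1.28, and -0.32 with the set term, where 1 remained called at 2-fold or more. Of the 66 coding genes 40 remained called at 2-fold or more with that term, and 24 had under 10 counts in some library. Among 16 genes at 0 in every library of a group, 1 was called. This was Sparcl1, a matrix-associated protein gene, with 2 counts in each KO Dox library and 0 in each KO DMSO library, no more than the floor of 3 counts, so no fold is given. The 40 genes that the naming rule took from the classes for their called interaction kept their sign and call with the set term, moving by at most 0.14 on the log2 scale, and 38 of them were called in all 23 alternatives. Serpina3g and Gprin3 were the exceptions, Gprin3 in the fit with KO DMSO replicate 3 alone in its group. The set term itself rests on KO DMSO replicate 1, so a call kept with it is a limited check.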

How the data were processed

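Polyadenylated RNA of 12 libraries was sequenced by a BGISEQ-500 protocol, per the labels. The authors deposited 1 table of raw read counts per gene, not normalised. Per the submitters' processing notes, STAR 2.6.0a, HTSeq 0.10.0 and the build GRCm38.p6 were used, and they do not state the strand of counting. The 4 sums of reads outside the gene counts, with 4.86 to 5.29% ambiguous, 5.41 to 6.57% multimapping, 4.05 to 5.01% outside genes and 1.85 to 7.63% unmapped, entered neither library sizes nor tests.

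Group means were fitted to all 12 libraries at once with edgeR 4.0.16 under R 4.3.3, scaled by TMM, and tested two-sided with the robust quasi-likelihood F test. Its low-count filter removed no gene, so the alternative without this filter repeats the main fit. The contrasts were doxycycline against DMSO in KO, the same in WT, and their difference. Calls needed an adjusted p under 0.05 (Benjamini-Hochberg, all genes). The SE is the log2 value divided by the square root of F, and 95% limits are not adjusted for the number of genes. CPM used TMM-scaled library sizes. Counting depth of 44476039 to 52173143 reads per library sets the precision, and the common biological coefficient of variation was 2.26%. Gene types and positions came from a GRCm38 annotation in which 12634 identifiers were found.

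Genes were named by class, as the 4 with the largest absolute interaction in each class and direction among protein-coding genes averaging 3 or more in log2 CPM and with 10 or more counts everywhere, for the same-way class without a call the 4 with the largest smaller response in each direction, and in each list up to 3 called members by smallest p and up to 2 not called by level. Crebbp and Ep300 were added, and part of these is given. Members, lists and alternatives were chosen with earlier results of these data known. The correlation of deviations from group means between libraries of the same replicate number ran from -0.35 to 0.27 over 18 pairs, so the numbers were not taken to pair libraries. Alternatives were other scalings, filters, DESeq2 1.42.0, limma-voom (limma 3.58.1), a replicate block, the set term, protein-coding genes alone, no mitochondrial genes, and each library left out.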

Additional observations from a re-analysis of the deposited data

Results flagged for a closer look

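The difference between the KO and WT responses was itself tested, and 4107 genes passed. Of these, 30 had an interaction of at least 2-fold in the positive direction and 77 in the negative direction, and 416 genes were called in opposite directions in KO and WT. Pmepa1 (1.75), Smad9 (1.59), Trib3 (-2.64), Chac1 (-2.24) and Cxcl5 (-1.79) are examples with at least 10 counts in every library.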

How the results depend on the processing

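Across 23 other fits no named gene with a called interaction changed sign with a call. The fit without the low-count filter is among them and repeats the main fit. Leaving out each library in turn gave 3474 to 4563 called interactions, 1719 to 2595 positive and 1515 to 1987 negative. The counts at 2-fold or more were 27 to 37 positive and 53 to 160 negative, with 160 without KO DMSO replicate 1. The classes held 4315 to 5246 genes (WT only), 576 to 1146 (KO only), 1044 to 1792 (both) and 276 to 531 (opposite), with 576 and 276 without KO Dox replicate 1. With the set term, 2-fold negative interactions numbered 33, WT only 1938, both 738 and opposite 174. Without KO DMSO replicates 1 and 2, an alternative chosen after seeing the data, 2-fold negative interactions numbered 158, KO only 289, both 587 and opposite 213. With protein-coding genes alone, where pseudogenes were not tested, 2-fold negative interactions numbered 40. Where a response had also to reach 1.5-fold, the classes held 542 (WT only), 74 (KO only), 35 (both) and 2 (opposite) genes, fewer by construction. For the other changes the cause was not tested.

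The replicate block gave 4050 called interactions and changed no class count by over 1.5 times. The share of positive calls was 55.9%, 49.5% without TMM and 49.1 to 57.2% with a library left out, so a balance of directions should not be read from it. WT DMSO and the low-pseudogene set cannot be told apart within WT, since the WT part of the set is the WT DMSO group. The size of the set term therefore came from KO DMSO replicate 1 against the other KO DMSO libraries, and whether it holds for WT was not tested. Depth limits genes with few counts in KO, such as Sparcl1, whose call was lost with the set term.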
